A study of Mus musculus with 2 samples.

Results

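Glycolysis, the pentose phosphate pathway and the entry of pyruvate into mitochondria were described by the RNA of 34 listed genes, all of which were found among the 48321 gene symbols counted in both libraries. The list holds 4 glucose and lactate transporters, 17 glycolytic enzymes, 2 lactate dehydrogenases, 3 subunits of pyruvate dehydrogenase, 4 kinases of that complex and 4 enzymes of the pentose phosphate pathway. The cells were mature thymocytes without surface CD4, sorted as CD24lo TCRβhi cells from *MHC-II0:CD8ab Tg* mice on the C57Bl/6 background, and 2 libraries of this single group were analysed. These mice lack I-Aβ and therefore MHC class II, both of their *Cd8* loci carry the *Cd8Δab* allele made in ES cell clones, and CD8α and CD8β are made from cDNAs in the *Rosa26* locus once Cre under *Cd4* control has removed a stop cassette. Every library thus carried all of these alleles, with CD8 made from the *Rosa26* locus. The sample titles call the cells CD4-CD8- whereas the cell type field calls them CD8+, and no age is given. No control library was analysed here, so levels within these cells and differences between the 2 libraries were the only comparisons the design allowed. The labels do not give the sex or say whether the libraries came from separate mice. Counts of *Xist* and *Ddx3y*, given below, differ as between male cells (replicate 1) and female cells (replicate 2), so the libraries did not come from the same mouse or pool. Differences between the libraries therefore cannot be told apart from differences of sex, and how much of their spread is technical is not known.

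Glucose enters T cells through facilitative transporters and is phosphorylated by hexokinase, which traps it in the cell. Glycolysis then splits it into pyruvate, which lactate dehydrogenase reduces to lactate for export by monocarboxylate transporters, or which the pyruvate dehydrogenase complex turns into acetyl-CoA unless its kinases switch the complex off. The pentose phosphate pathway branches off after hexokinase and gives NADPH and ribose phosphate. Most of these steps can be carried out by isozymes, close relatives encoded by separate genes, whose use differs between tissues and changes when resting T cells are activated.

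The counts on genes summed to 16732644 in replicate 1 and 16245849 in replicate 2, so that 3 counts, the lowest level treated as detected, equalled 0.179 and 0.185 CPM, counts per 1000000 counts on genes. The 34 genes took 65581 and 67984 counts, 0.392% and 0.418% of all counts on genes. The libraries differed in genes of the sex chromosomes, with 34 counts of *Xist* and 2450 of *Ddx3y* in replicate 1 against 25266 and 0 in replicate 2, a difference given again beside the X-linked genes below. All 14 markers of mature αβ T cells had at least 1 CPM in both libraries, with sums of 5277 and 5072 CPM, and *Cd4* had 12 and 27 counts.

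Because the report turns on which isozyme a read belongs to, the coding sequences of the isozymes were compared first. Within the 8 families of isozymes, the aligned coding sequences were 58.1% (*Slc16a1* and *Slc16a3*) to 77.8% (*Eno2* and *Eno3*) identical, and the longest stretch of bases shared by any pair of isozymes was 29 bases, shorter than a read of 50 bases. No window of 50 bases was shared between isozymes of these 8 families. The stretches below are 30 bases of coding exon around the longest shared run that lies within a single exon of both genes, with the bases that differ between the isozymes in capitals. They are shown for 3 pairs whose levels are compared below, on the build GRCm38 and 5′ to 3′ on the strand of the gene.
Hk1 (chr10:62275828-62275857, minus strand): CagcaatgcctgctacatggaggagatgAA
Hk2 (chr6:82730915-82730944, minus strand): AagcaatgcctgctacatggaggagatgCG
Ldha (chr7:46850276-46850305, plus strand): aacAtCttcaagttcatcattccCAaCatT
Ldhb (chr6:142498551-142498580, minus strand): aacGtGttcaagttcatcattccTCaGatC
Pdk3 (chrX:93777387-93777416, minus strand): tttggttatggcttgccaatttctcgtctG
Pdk4 (chr6:5486756-5486785, minus strand): tttggttatggcttgccaatttctcgtctC
The *Pdk3* and *Pdk4* stretches differ at 1 base of 30 and the *Ldha* and *Ldhb* stretches at 6. *Pdk3* and *Pdk4* nevertheless had very different counts, 399 and 381 against 2 and 3.

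Levels of different genes were compared as CPM per kilobase of exon, with the length taken as the union of the exons of a gene in the GENCODE M21 annotation. *Ldha*, which encodes the A subunit of lactate dehydrogenase, was the highest of the 34 genes, at 136 and 149 CPM per kb. The pyruvate kinase gene *Pkm* followed at 87.4 and 93.8 CPM per kb, and the aldolase gene *Aldoa* at 84.2 and 85.4 CPM per kb. Of the 34 genes, 26 lay above the median of protein-coding genes with at least 10 counts (5.71 CPM per kb, 11855 genes), and 9 were at or above the 90th percentile of those genes. These 9 were *Ldha*, *Pkm*, *Aldoa*, *Gapdh*, *Taldo1*, *Eno1*, *Gpi1*, *Pgam1* and *Pdha1*. Below the 25th percentile were 6 genes, *Hk2*, *Slc16a3*, *Aldoc*, *Eno2*, *Hk3* and *Pdk4*, each an isozyme of a family in which another gene was higher. When the genes were ordered by mean level, 25 of the 33 pairs of neighbours did not overlap between the libraries. The 8 pairs that overlapped, and so could not be ordered beyond their spread, were *Pdk1* and *Tpi1*, *Tpi1* and *Hk1*, *Pfkp* and *Pgd*, *Pgd* and *Slc2a1*, *Slc16a1* and *G6pdx*, *G6pdx* and *Eno3*, *Slc2a3* and *Ldhb*, and *Eno2* and *Hk3*. The order of the other pairs holds for this length and leaves out counting error. For example, *Aldoc* stood above *Eno2*, but with the longest coding transcripts its mean of 0.359 CPM per kb was below the 0.403 of *Eno2*.

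**Figure D1:**
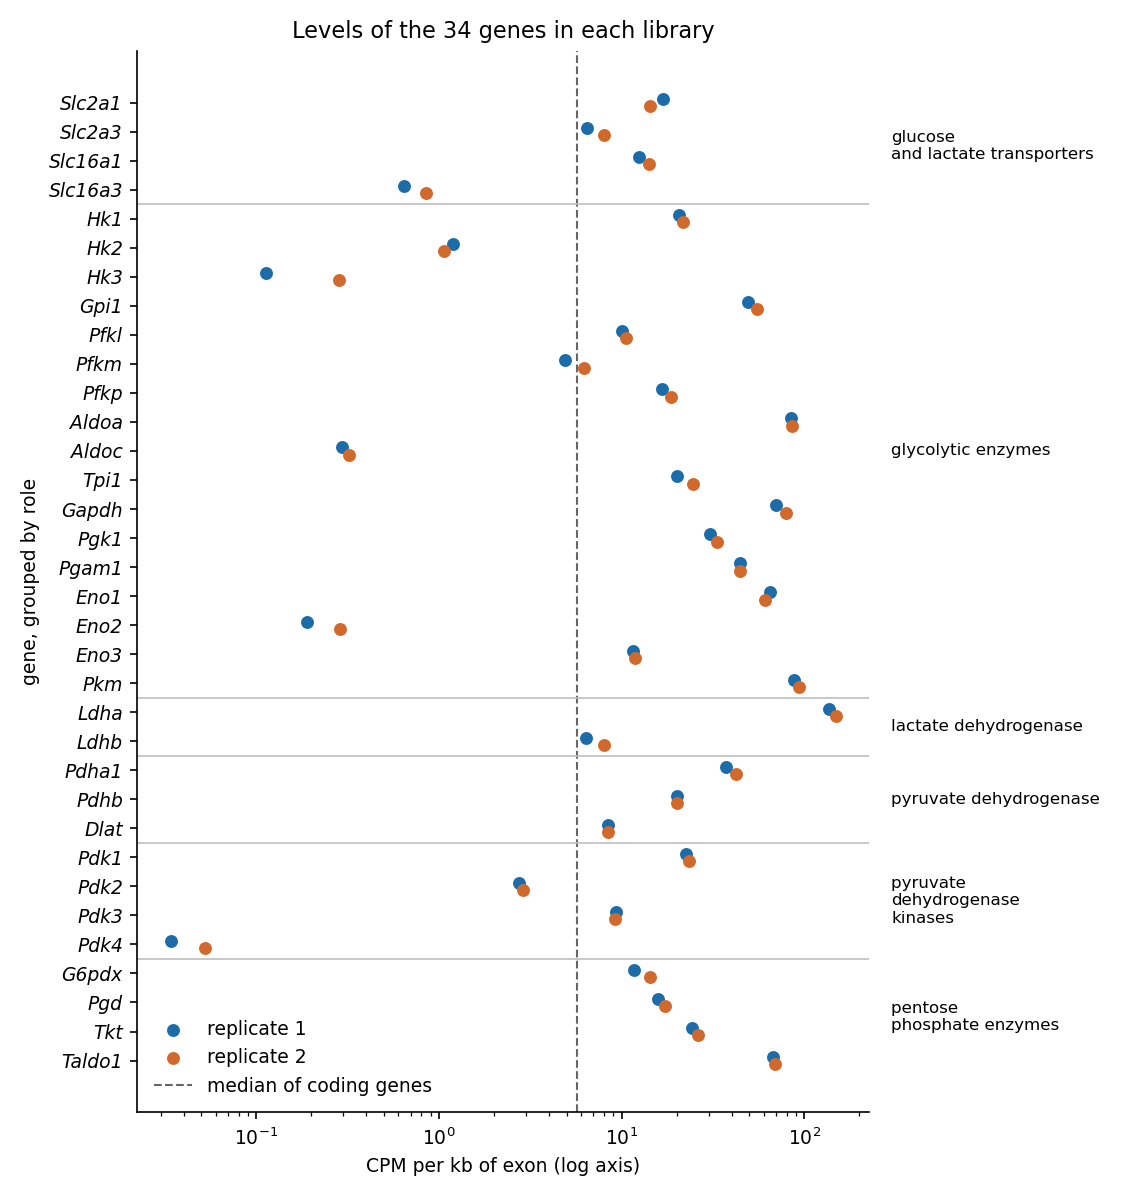
Level of each of the 34 genes in CPM per kb of exon (log axis), grouped by role, with 1 point per library and a dashed line at the median of protein-coding genes with at least 10 counts (5.71 CPM per kb). *Slc16a3*, *Hk2*, *Hk3*, *Aldoc*, *Eno2*, *Pdk2* and *Pdk4* lie left of the line in both libraries, and *Ldha* has the highest level at 136 and 149 CPM per kb.

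Glucose transporters were represented by *Slc2a1* (GLUT1, chr4:119108711-119137983), the main transporter of activated T cells, and *Slc2a3* (GLUT3, chr6:122727809-122801640), which has a high affinity for glucose. *Slc2a1* had 985 and 813 counts, or 16.8 and 14.3 CPM per kb. *Slc2a3* had 789 and 938 counts, or 6.51 and 7.97 CPM per kb, below *Slc2a1* in both libraries. The share of *Slc2a1* in the summed level of the pair was therefore 72.1% in replicate 1 and 64.2% in replicate 2, with a mean of 68.1% ± 5.58 (SD, n = 2). The ratio of *Slc2a1* to *Slc2a3* per kb was 2.58 in replicate 1 (95% Clopper-Pearson interval for counting error 2.35 to 2.84) and 1.79 in replicate 2 (1.63 to 1.97), and these intervals did not overlap. This order depended on the length used. With the longest coding transcripts the ratio was 1.52 (1.38 to 1.67) in replicate 1 but 1.05 (0.957 to 1.16) in replicate 2, where the pair could not be ordered.

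Lactate export was represented by *Slc16a1* (MCT1) and *Slc16a3* (MCT4, an exporter typical of strongly glycolytic cells). *Slc16a1* had 922 and 1014 counts, 12.4 and 14.1 CPM per kb, whereas *Slc16a3* had 57 and 73 counts, 0.641 and 0.845 CPM per kb. *Slc16a1* thus made up 94.7% ± 0.537 (SD, n = 2) of the pair, and exceeded *Slc16a3* by 19.4-fold (95% interval 14.9 to 25.9) and 16.7-fold (13.2 to 21.5) per kb. *Slc16a1* was below *Slc2a1* per kb in both libraries, with ratios of 0.741 and 0.988 to it. With the number of windows not found in other transcripts as the length, the ratios were 0.779 in replicate 1 and 1.04 in replicate 2. No window of either gene was shared with genes elsewhere, so none was left out. The ratios changed because 3644 windows replaced 3506 exon bases for *Slc2a1*, and 4377 windows replaced 4426 exon bases for *Slc16a1*.

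Of the hexokinases, *Hk1* (chr10:62268855-62379908) encodes the widely expressed isozyme that binds mitochondria, *Hk2* (chr6:82725025-82774454) the isozyme that insulin and T-cell activation raise, and *Hk3* an isozyme known from myeloid cells. *Hk1* had 2941 and 3009 counts, 20.6 and 21.7 CPM per kb. *Hk2* had only 120 and 103 counts, 1.20 and 1.06 CPM per kb, so that *Hk1* was 17.1-fold (95% interval 14.3 to 20.8) and 20.4-fold (16.8 to 25.1) higher per kb. With the longest coding transcripts it was 31.6-fold (26.3 to 38.2) and 37.6-fold (30.9 to 46.3) higher. *Hk1* made up 94.1% ± 0.114 (SD, n = 2) of the family and *Hk2* 5.04% ± 0.619 (SD, n = 2). *Hk3* was lowest, at 7 and 17 counts or 0.114 and 0.284 CPM per kb. Beside *Hk3*, the list of 9 myeloid and dendritic markers summed to 15.1 and 16.5 CPM. Of these, *Csf1r* gave 9.74 and 11.8 CPM, on exons of which 873 bases overlap *Hmgxb3* on the opposite strand. *Cd68* had 51 and 47 counts and *Itgam* 34 and 18. *Lyz2* had 0 and 2 counts, and *S100a8* and *S100a9* had 0 counts in both libraries. Whether such cells gave the reads of *Hk3* was not tested.

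The next enzyme, glucose 6-phosphate isomerase (*Gpi1*), whose product goes on to glycolysis and whose substrate is shared with the pentose phosphate pathway, was at 49.5 and 55.0 CPM per kb. Phosphofructokinase, which commits glucose to glycolysis, was divided among 3 isozymes. *Pfkp*, the platelet isozyme (chr13:6579768-6648777), had 3738 and 4050 counts, 16.7 and 18.6 CPM per kb. *Pfkl*, the liver isozyme, had 1128 and 1149 counts, 10.1 and 10.6 CPM per kb, and *Pfkm*, the muscle isozyme, 275 and 337 counts, 4.92 and 6.21 CPM per kb. None of these ranges overlapped, so the order *Pfkp*, *Pfkl*, *Pfkm* was the same in both libraries. *Pfkp* made up 52.6% ± 0.0473, *Pfkl* 30.9% ± 1.38 and *Pfkm* 16.5% ± 1.42 of the family (SD, n = 2). These shares depended on the length used, because the exons of *Pfkp* cover 13401 bases but its longest coding transcript only 4145. With that transcript the share of *Pfkp* was 69.5% and that of *Pfkl* 22.6%, in the same order.

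The aldolases and enolases were each led by the ubiquitous isozyme. *Aldoa* had 4103 and 4038 counts, whereas *Aldoc*, the brain aldolase, had 16 and 17 counts, 0.293 and 0.321 CPM per kb. *Aldoa* was accordingly 99.6% ± 0.0194 (SD, n = 2) of the pair. *Eno1*, the enolase of most tissues, had 5839 and 5302 counts, 64.9 and 60.7 CPM per kb. *Eno3*, known as the muscle enolase, was second with 335 and 334 counts, 11.5 and 11.8 CPM per kb, and was above the median of coding genes. *Eno2*, the neuronal enolase, had 15 and 22 counts, 0.191 and 0.288 CPM per kb. *Eno1* made up 84.0% ± 0.959, *Eno3* 15.6% ± 0.855 and *Eno2* 0.322% ± 0.104 of the enolases (SD, n = 2). The share of *Eno3* depended on the length, at 7.22% with the longest coding transcripts and 5.66% with no length correction. *Eno1* exceeded *Eno3* by 5.38-fold per kb of all exons (mean of the libraries) and by 12.8-fold with the longest coding transcripts.

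Lactate dehydrogenase is a tetramer of A and B subunits, of which the A subunit is typical of muscle and glycolytic cells and the B subunit of heart. *Ldha* (chr7:46841475-46855627) had 7535 and 8017 counts, the most of any of the 34 genes. *Ldhb* (chr6:142490249-142507957) had 167 and 205 counts, 6.36 and 8.04 CPM per kb. *Ldha* exceeded *Ldhb* by 21.4-fold (95% interval 18.4 to 25.1) in replicate 1 and 18.5-fold (16.1 to 21.4) in replicate 2 per kb, and was 95.2% ± 0.460 (SD, n = 2) of the pair. With the longest coding transcripts the ratios were 32.4 and 28.1.

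**Figure D2:**
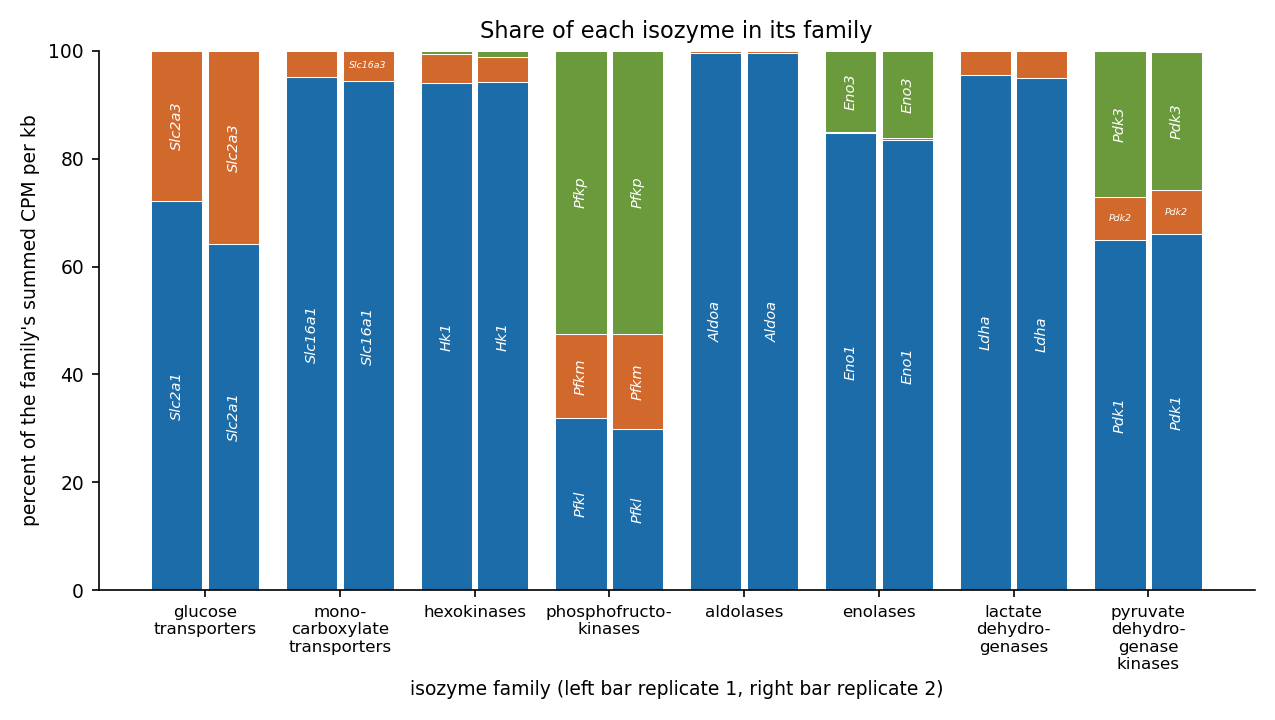
Share of each isozyme in the summed CPM per kb of its family, as stacked bars for replicate 1 (left) and replicate 2 (right) of each of the 8 families. The segments without a name are *Slc16a3* in replicate 1, *Hk2* and above it *Hk3*, *Aldoc*, *Eno2* between *Eno1* and *Eno3*, *Ldhb*, and *Pdk4*, which is too thin to be seen, and the boundary that moves most between the libraries is that of *Slc2a1* at 72.1% and 64.2%.

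The enzymes of the middle of glycolysis that have no second isozyme in the list covered a wide range. Glyceraldehyde 3-phosphate dehydrogenase (*Gapdh*), which makes NADH, was at 70.0 and 79.3 CPM per kb. Phosphoglycerate mutase (*Pgam1*) was at 44.7 and 44.6 CPM per kb, and phosphoglycerate kinase (*Pgk1*), the first enzyme of glycolysis to make ATP, at 30.5 and 33.3 CPM per kb. Triosephosphate isomerase (*Tpi1*), which interconverts the triose phosphates, was lowest of these at 20.0 and 24.6 CPM per kb. *Pkm*, which makes pyruvate and whose PKM1 and PKM2 forms differ by an exon that counts per gene do not separate, was at 87.4 and 93.8 CPM per kb.

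When the isozymes of each step were summed, lactate dehydrogenase was highest of 13 steps from glucose uptake to lactate export, at 150 ± 10.4 CPM per kb (SD, n = 2), and lactate transport lowest, at 14.0 ± 1.31. The payoff steps, which follow triosephosphate isomerase, ranged from 31.9 ± 2.00 for phosphoglycerate kinase to 90.6 ± 4.57 for pyruvate kinase. Glucose transport (22.8 ± 0.747), hexokinase (22.5 ± 0.805) and triosephosphate isomerase (22.3 ± 3.22) were close to each other and, with this length, below all those payoff steps. The first and last ranks were the same with each of 3 lengths, whereas *Gapdh* rose from rank 5 to rank 2 with the longest coding transcript, since its exons cover 4133 bases but that transcript 1420. *Pgk1* was at 69.3 CPM per kb, rank 7 in place of 9, when windows shared with other genes were left out of its length.

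**Figure D3:**
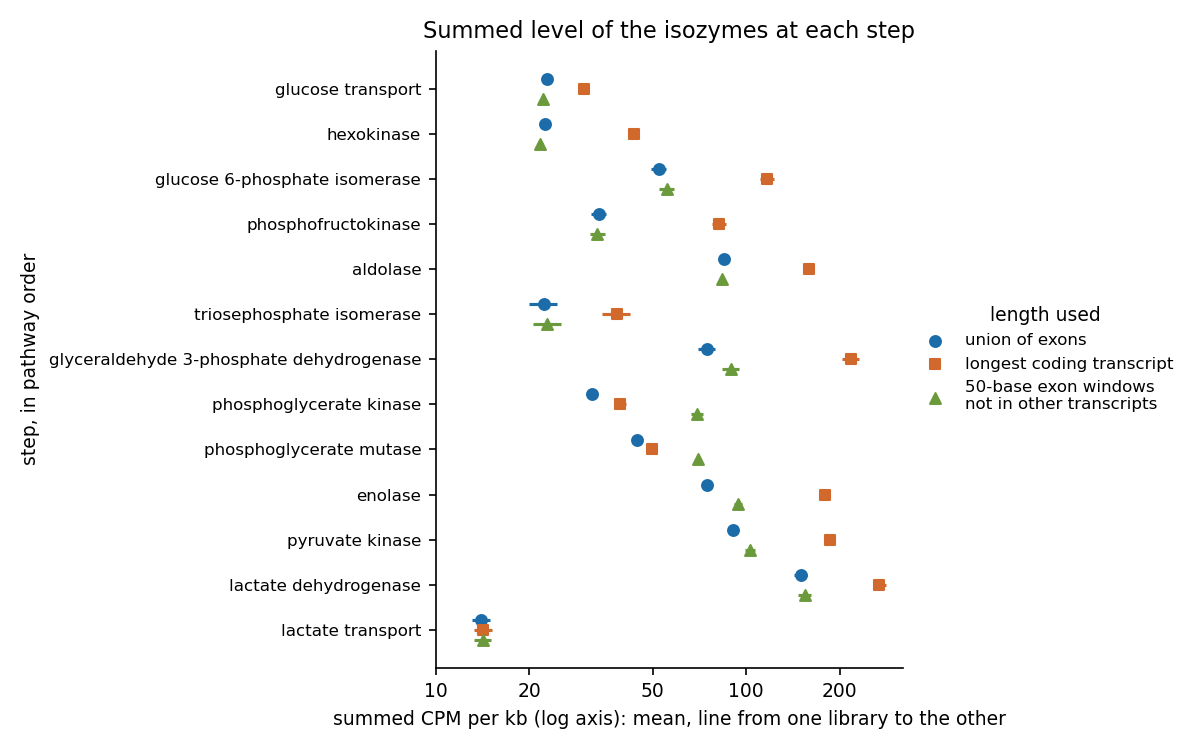
Summed CPM per kb (log axis) of the isozymes at 13 steps in pathway order, with points for the mean of the 2 libraries, lines from the lower to the higher library, and colours for the length used. Lactate dehydrogenase is highest and lactate transport lowest with all 3 lengths, and phosphoglycerate kinase and mutase shift to the right with windows not found in other transcripts.

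Pyruvate dehydrogenase links glycolysis to the citric acid cycle. Its α subunit gene *Pdha1* was highest of the 3 measured, with 2344 and 2566 counts or 37.5 and 42.3 CPM per kb. The β subunit gene *Pdhb* was at 20.1 and 20.0 CPM per kb, and *Dlat*, which encodes the acetyltransferase core, at 8.48 and 8.40 CPM per kb. The α and β subunits assemble in equal numbers, yet *Pdha1* was 1.99 ± 0.173 times *Pdhb* (SD, n = 2) per kb of all exons. With the longest coding transcript this ratio was 1.02 ± 0.0890, so no order of the pair can be given. *Ldha* was 3.58 ± 0.0720 times *Pdha1* per kb (SD, n = 2), and 4.97 times with the longest coding transcripts.

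The kinases that inactivate the complex were led by *Pdk1* (chr2:71873224-71903858), known as a target of HIF-1. It had 2919 and 2974 counts, 22.4 and 23.5 CPM per kb. *Pdk3* followed with 399 and 381 counts, 9.31 and 9.16 CPM per kb, then *Pdk2*, the most widely expressed kinase, with 145 and 148 counts, 2.74 and 2.88 CPM per kb. *Pdk4*, which fasting and fatty acids raise in muscle and liver, had 2 and 3 counts and was thus at or under the floor of 3 counts in both libraries. The levels of the 4 kinases did not overlap, in the order *Pdk1*, *Pdk3*, *Pdk2*, *Pdk4*. *Pdk1* made up 65.5% ± 0.763, *Pdk3* 26.3% ± 0.901 and *Pdk2* 8.01% ± 0.104 of the family (SD, n = 2). *Pdk1* exceeded *Pdk3* by 2.41-fold (95% interval 2.17 to 2.68) and 2.57-fold (2.31 to 2.87) per kb, and *Pdk3* exceeded *Pdk4* by 274-fold (75.2 to 2266) and 174-fold (59.1 to 848), intervals that are wide because *Pdk4* had so few counts. Of the opposing phosphatase genes, *Pdp1* was at 2.44 and 2.53 CPM per kb and *Pdp2* at 2.77 and 2.87, below *Pdk1* and *Pdk3* but near *Pdk2* and above *Pdk4*. *Pdk1* was 8.15 ± 0.0858 times *Pdp2* (SD, n = 2) per kb.

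In the pentose phosphate pathway *Taldo1* and *Tkt*, the listed genes of its non-oxidative branch, were above *Pgd* and *G6pdx* of its oxidative branch. Transaldolase (*Taldo1*), which returns sugars to glycolysis, had 2462 and 2437 counts, 67.8 and 69.1 CPM per kb, and its partner transketolase (*Tkt*) 2987 and 3138 counts, 24.3 and 26.3 CPM per kb. The enzymes of the oxidative branch make NADPH. 6-phosphogluconate dehydrogenase (*Pgd*) was at 15.8 and 17.2 CPM per kb, and glucose 6-phosphate dehydrogenase (*G6pdx*), the rate-limiting enzyme, at 11.7 and 14.2 CPM per kb. *Gpi1*, which competes with *G6pdx* for glucose 6-phosphate, was 4.04 ± 0.253 times *G6pdx* (SD, n = 2), and 7.79 ± 0.487 times with the longest coding transcripts. The order *Taldo1*, *Tkt*, *Pgd*, *G6pdx* was the same in both libraries and with all 3 lengths.

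Reads of some of these genes cannot be told from those of near-identical copies elsewhere. For 15 of the 34 genes no window of 50 exon bases occurred in transcripts of genes elsewhere in the genome, but for 7 genes over 10% of the windows did. The share was 53.9% for *Pgk1* (chrX:106187100-106203699), whose windows recur in the processed pseudogenes *Pgk1-rs7* on chromosome 12 and *Gm5537* on chromosome 3, both with 0 counts in both libraries. It was 36.2% for *Pgam1*, 26.0% for *Eno1*, 24.7% for *Gapdh*, 21.0% for *Ldhb*, 14.2% for *Pkm* and 11.4% for *Pdhb*. *Gapdh* shares windows with 213 pseudogenes, of which 197 are in the count table, with 333 and 366 counts in all. The levels of these 7 genes are uncertain for this reason. Alignments that were not unique, 27736636 in replicate 1 and 24451411 in replicate 2, were counted on no gene, so levels per kb of all exons may be too low. With shared windows left out of the length *Pgk1* was at 69.3 CPM per kb in place of 31.9, *Pgam1* at 70.0 in place of 44.7 and *Eno1* at 82.8 in place of 62.8. *Gpi1*, not among the 7, shares windows with 3 pseudogenes that had 1528 and 1390 counts in all. *Eno1* shares 25.3% of its windows with *Eno1b*, which had 109 and 180 counts, and 2.47% with the pseudogene *Gm5855*, which had 191 and 412 counts. Exons of 13 of the 34 genes overlap exons of a neighbouring gene, by over 300 bases for *Pkm* (767 bases, *Gm49759*), *Pfkp* (748, *Pitrm1*), *Gpi1* (741, *Gm26762*), *Pdha1* (603, *Map3k15*), *G6pdx* (418, *Ikbkg*) and *Pfkm* (341, *Gm26513*). The library kit does not mark the strand, so reads there could belong to either gene.

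**Figure D4:**
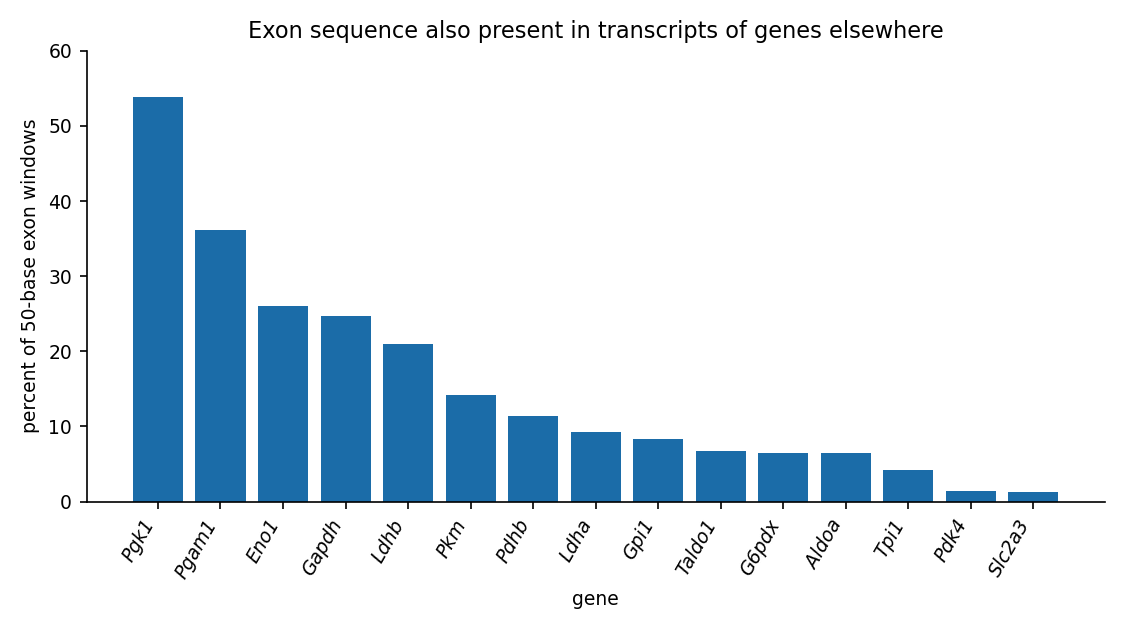
Percent of the windows of 50 exon bases of a gene that also occur in transcripts of genes elsewhere, for those of the 34 genes with at least 1%. *Pgk1* stands highest at 53.9%, and 7 genes are above 10%.

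Between the libraries, 33 of the 34 genes had the 10 counts needed for the test, *Pdk4* being the exception. Each was compared by a two-sided exact binomial test given the totals on genes, adjusted over all 15949 genes tested. A call needed a change of 2-fold or more and an adjusted p under 0.05, and none of the 33 met both conditions, whereas 1.52% of all genes tested did. Unadjusted, 19 of the 33 had p under 0.05, beside 27.7% of all genes. With edgeR's exact test, in which the biological coefficient of variation was set to 0.1, none of the 33 was called (0.376% of all genes were, and 0.464% passed with no minimum fold), and none had an unadjusted p under 0.05, beside 5.17% of all genes. With no minimum fold, 14 of 33 (42.4%) passed the exact binomial test, against 16.3% of all genes. Among genes with at least 1000 counts, where small differences pass more easily, it was 13 of 23 of the listed genes (56.5%) and 31.2% of the 5719 genes of that depth. This test compares these 2 libraries and not conditions, since it takes no account of biological spread, and in bulk RNA fewer cells of a type and less RNA per cell cannot be told apart.

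Of the 14, 12 were higher in replicate 2 and 2 lower, beside 13.5% and 2.82% of all genes tested that passed in each direction. At any size, 26 of the 33 were higher in replicate 2, against 65.4% of all genes. The median log2 ratio of replicate 2 to replicate 1 was 0.12 for the 33 and 0.08 for all genes tested. The number that passed fell to 5 with library sizes from edgeR's TMM method, 3 of them higher and 2 lower, and to 8 with DESeq2 size factors, 6 of them higher and 2 lower. The 5 genes were *Slc2a3*, *Tpi1* and *Gapdh*, higher in replicate 2, and *Slc2a1* and *Eno1*, lower in it. The values that follow are with the totals on genes and not with TMM library sizes. *Tpi1* had 55.2 and 67.7 CPM, a log2 ratio of 0.30 (exact binomial test, adjusted p = 9.86e-05). *Gapdh* had 289 and 328 CPM, a log2 ratio of 0.18 (exact binomial test, adjusted p = 1.88e-08). *Eno1* had 349 and 326 CPM, a log2 ratio of -0.10 (exact binomial test, adjusted p = 0.00486).

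Markers of mature T cells also differed between the libraries. Of the 14 markers, 8 (57.1%) passed the exact binomial test with no minimum fold. Beside them, 16.3% of all genes passed, and 31.2% of those with at least 1000 counts, a depth that all 14 had. In replicate 2, 6 of the 8 were lower (*Cd3e*, *Cd3g*, *Trac*, *Cd5*, *Ccr7* and *S1pr1*) and 2 higher (*Lck* and *Cd8a*). In these mice CD8α is made from the *Rosa26* locus, so reads of *Cd8a* need not come from its own locus. With TMM library sizes 10 passed, 9 lower and 1 higher, beside 1688 of the 15949 genes tested. None of the 14 passed edgeR's exact test, beside 0.464% of all genes. *S1pr1*, a receptor that mature thymocytes need to leave the thymus, had 318 and 227 CPM, a log2 ratio of -0.48 (exact binomial test, adjusted p = 1.48e-53). *Ccr7*, a chemokine receptor of mature thymocytes, had 277 and 225 CPM, a log2 ratio of -0.30 (exact binomial test, adjusted p = 1.79e-19). The part of these markers in the differences of the 34 genes was not tested.

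The glucose transporters differed between the libraries in opposite directions. *Slc2a1* had 58.9 CPM in replicate 1 and 50.0 in replicate 2, a log2 ratio of -0.23 (95% counting interval -0.37 to -0.10, exact binomial test, adjusted p = 0.00664). *Slc2a3* had 47.2 and 57.7 CPM, a log2 ratio of 0.29 (0.15 to 0.43, exact binomial test, adjusted p = 0.000476). Of the 23 listed genes with at least 1000 counts, *Slc2a1* was the only one outside the range that holds the middle of all genes of that depth, from the 2.5th percentile at -0.20 to the 97.5th at 0.34. The largest ratio of the 33 was that of *Hk3*, 1.32, but with 7 and 17 counts its counting interval ran from -0.02 to 2.83.

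Of the listed genes, 4 are on the X chromosome, and *Xist* and *Ddx3y* differed between the libraries as given above. With the totals on genes, *Pdha1* (log2 ratio 0.17, exact binomial test, adjusted p = 0.000463) and *G6pdx* (0.28, adjusted p = 0.00520) were higher in replicate 2. Neither passed with TMM library sizes, with DESeq2 size factors or in edgeR's exact test. *Pgk1* (0.13, adjusted p = 0.136) and *Pdk3* (-0.02, adjusted p = 0.941) did not pass the exact binomial test. The median log2 ratio of the 4 X-linked genes was 0.15, beside 0.11 for the 29 autosomal genes of the list. Over all X-linked coding genes tested (368) the median was 0.08, and over autosomal ones (11473) it was also 0.08. The part of the sex chromosomes in these ratios was not tested.

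**Figure D5:**
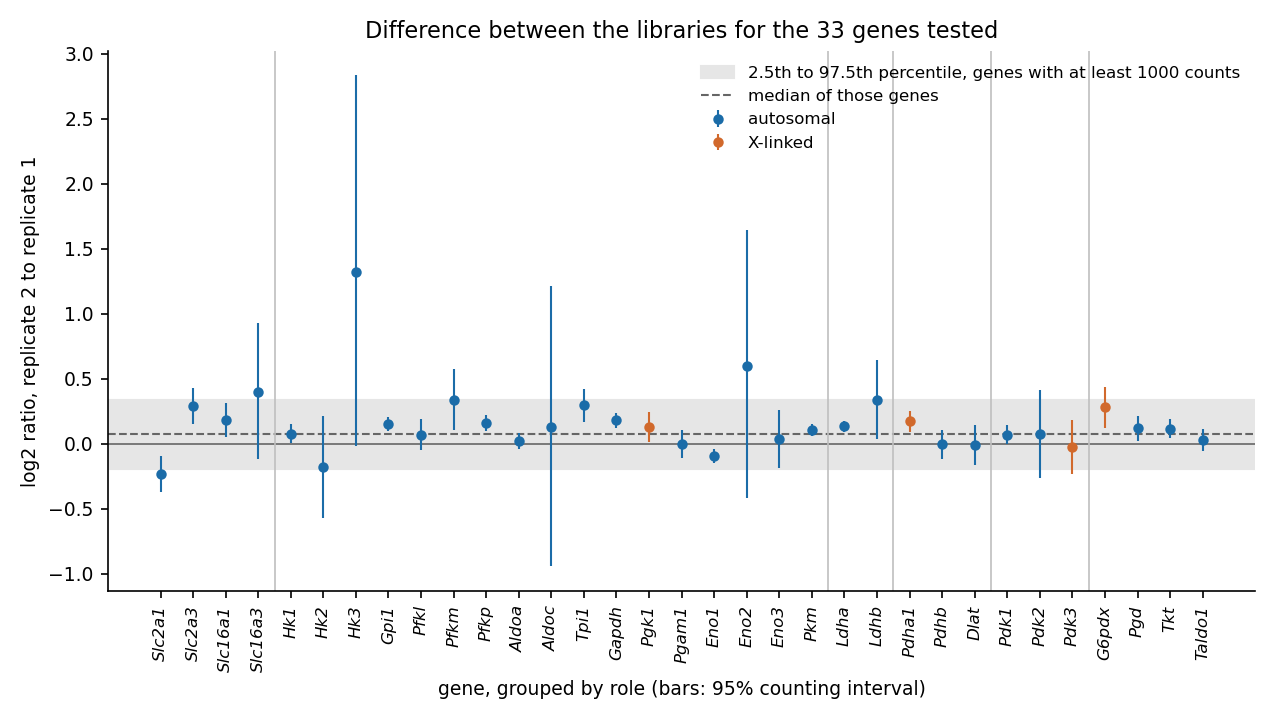
Log2 ratio of replicate 2 to replicate 1 for the 33 genes tested, grouped by role, with 95% Clopper-Pearson counting intervals and the X-linked genes in orange. The grey band spans the 2.5th to 97.5th percentiles of genes with at least 1000 counts (-0.20 to 0.34), and of the listed genes of that depth *Slc2a1* lies below it. *Hk3*, with only 7 and 17 counts, has the highest ratio of the 33 and a wide interval.

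Another 61 genes of the same pathways were listed beside the 34, of which 45 had the counts needed for the test between the libraries. None of the 45 was called by the exact binomial test with its 2-fold minimum, beside 1.52% of all genes tested. None of them passed edgeR's exact test with no minimum fold either, beside 0.464% of all genes. Of 21 other isozymes, 10 were at or under 3 counts in both libraries. Among these 10, *Hkdc1* of the hexokinase family, *Pgk2*, *Eno4*, *Ldhc*, *Pdha2* and *Slc2a4* had 0 counts, *Slc2a2* had 2 and 1, and *Tktl2* had 0 and 1. These include isozymes known from liver (*Slc2a2*), testis (*Pgk2*, *Ldhc*, *Pdha2*) and insulin-responsive muscle and fat (*Slc2a4*), and 0 counts allow a level of up to 0.179 and 0.185 CPM. The highest were the muscle mutase gene *Pgam2* at 4.13 and 4.32 CPM per kb, the ADP-dependent glucokinase gene *Adpgk* at 4.10 and 3.88, and the urate transporter gene *Slc2a9* at 3.66 and 2.79. *Slc2a9* was the single gene of the 10 tested in this list at an adjusted p under 0.05, beside 16.3% of all genes, lower in replicate 2 with a log2 ratio of -0.39 (exact binomial test, adjusted p = 0.0149).

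Fructose 2,6-bisphosphate activates phosphofructokinase and is made and removed by bifunctional enzymes. All 5 genes of this list had at least 1 CPM in both libraries. *Pfkfb3*, whose enzyme mainly makes it, was highest at 5.87 and 6.91 CPM per kb (exact binomial test, adjusted p = 0.0114), and *Tigar*, whose enzyme removes it, was next at 5.21 and 4.86. *Pfkfb2* was at 1.41 and 1.50 CPM per kb. *Pfkfb3* was the single gene of the 5 at an adjusted p under 0.05 in the exact binomial test, beside 16.3% of all genes tested.

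The rest of the pentose phosphate pathway was also present. The epimerase gene *Rpe* was at 14.6 and 15.8 CPM per kb and the lactonase gene *Pgls* at 8.96 and 9.89. The isomerase gene *Rpia*, also of the non-oxidative branch, was at 8.36 and 8.88 CPM per kb, below *Pgd* and *G6pdx* in both libraries, but with the longest coding transcripts it was at 24.5 and 26.0, between *Pgd* and *G6pdx*. *H6pd*, which encodes the glucose 6-phosphate dehydrogenase of the endoplasmic reticulum, was at 11.6 and 16.3 CPM per kb, a log2 ratio of 0.48 (exact binomial test, adjusted p = 2.55e-14). It was the single gene of its list of 5 at an adjusted p under 0.05, beside 16.3% of all genes tested, and did not pass edgeR's exact test (adjusted p = 0.774). *G6pdx* had 1.01 and 0.875 times the level of *H6pd* per kb.

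Of the 8 other genes of pyruvate entry, all had at least 1 CPM in both libraries. None passed the exact binomial test between the libraries with no minimum fold, beside 16.3% of all genes tested. *Dld*, the dehydrogenase subunit that pyruvate dehydrogenase shares with other complexes, was highest at 17.7 and 17.1 CPM per kb. *Mpc1*, which forms the mitochondrial pyruvate carrier with *Mpc2*, was at 11.3 and 10.9 CPM per kb, and the regulatory gene *Pdpr* at 9.50 and 10.4. *Mpc1* was 3.51 ± 0.0137 times *Mpc2* (SD, n = 2) per kb of exon, but 1.06 ± 0.00416 times with the longest coding transcripts.

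Enzymes that run glycolysis backwards were mostly low. Among 12 genes of glycerol 3-phosphate and gluconeogenic metabolism, *Fbp1*, *Fbp2* and *G6pc* had 0 counts in both libraries and *Pck1* had 1 and 2. *Gpd1l* was highest at 12.0 and 11.8 CPM per kb, followed by the phosphoglucomutase gene *Pgm2* at 11.0 and 10.5. *G6pc3*, the glucose 6-phosphatase found in most tissues, was at 7.28 and 9.65 CPM per kb (log2 ratio 0.41, exact binomial test, adjusted p = 0.00530). It was the single gene of the 7 tested in this list at an adjusted p under 0.05, beside 16.3% of all genes tested.

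Among 10 regulators and transporter chaperones, *Txnip*, an arrestin-like protein that restrains glucose uptake, stood above all 34 listed genes. It had 12183 and 14756 counts, 233 and 291 CPM per kb, on exons of which 606 bases overlap *Gm15441* on the opposite strand, and was higher in replicate 2 (log2 ratio 0.32, exact binomial test, adjusted p = 1.30e-70). *Bsg*, the chaperone that carries monocarboxylate transporters to the membrane, was at 60.6 and 62.6 CPM per kb, 4.65 ± 0.302 times *Slc16a1* (SD, n = 2). *Myc*, a transcription factor known to raise glycolytic genes, was at 46.9 and 50.0 CPM per kb. *Txnip* was the single gene of this list of 10 that passed the exact binomial test with no minimum fold, beside 16.3% of all genes tested. It did not pass edgeR's exact test.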

How the data were processed

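RNA was extracted from sorted mature thymocytes in 2 replicates, and the authors prepared poly(A) libraries with a kit that does not mark the strand and obtained single-end reads of 50 bases. Per the labels and the study's methods, reads were mapped with TopHat2 2.1.1 onto mm10 (GRCm38) and counted with HTSeq 0.6.1. The deposited values are raw counts per gene, without normalization. The annotation and the strand setting used for counting are not given in the sources used here. Of the alignments that were unique, 40.6% and 41.2% fell on genes, 55.9% and 55.9% on no gene and 3.52% and 2.92% on several genes, and these last 2 kinds were left out of the totals.

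The 34 genes and the lists beside them were chosen with earlier results of these data known. CPM were computed from the total on genes. Lengths, positions and sequences came from GENCODE M21 on GRCm38, in which all 34 were found, with windows of 50 bases compared against all its transcripts on either strand. The libraries were compared by the exact binomial test (two-sided, scipy 1.17.1) for each gene whose counts added up to 10 or more, with p-values adjusted by the Benjamini-Hochberg method (statsmodels 0.14.6). Calls with the 2-fold minimum were tested on simulated data, which did not cover smaller differences passed with no minimum fold. A paired test over 2 libraries cannot give a p below 0.5, and edgeR's quasi-likelihood test has no residual degrees of freedom here. Shares of isozymes are given as mean ± SD with no test, and ratios with Clopper-Pearson intervals for counting error at the 95% level. They do not include other errors, because without molecular identifiers several reads can come from the same molecule. Alternatives were TMM factors and an exact test from edgeR 4.0.16, DESeq2 1.42.0 size factors, totals without 392 mitochondrial and ribosomal RNA genes, minimum counts of 1 and 100, other lengths and each library alone. Every gene of the 34 was named, and of each further list the 3 with the highest mean CPM per kb, those at or under 3 counts in both libraries and any called between the libraries. Some of these genes and sequences are not reported here. *Pdp1*, *Pdp2*, *Mpc2*, *Rpia*, the T-cell markers, *Dntt*, *Cd79b*, *Cd68* and *Itgam* were outside this rule and were chosen after their values were seen. Python 3.11.15 and R 4.3.3 were used.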

Additional observations from a re-analysis of the deposited data

How the results depend on the processing

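No paired analysis was possible because the series holds a single group, so no groups share replicate numbers. The count of the 34 genes that both differed at least 2-fold and had an adjusted p under 0.05 stayed at 0 under all 6 alternatives. The same count over all genes, 242 (150 higher and 92 lower in replicate 2), was 55 with a minimum of 100 counts and 60 with edgeR's exact test, and with TMM library sizes it was 198, 98 higher and 100 lower. With no minimum fold, the 14 listed genes became 5 with TMM, 8 with DESeq2 size factors and 0 with edgeR's exact test, and the 2596 of all genes became 1688 with TMM and 74 with edgeR's exact test.

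Shares of isozymes moved mostly with the length used. With the longest coding transcript, they were 55.8% for *Slc2a1*, 93.6% for *Slc16a1*, 96.7% for *Hk1*, 22.6% for *Pfkl*, 99.8% for *Aldoa*, 92.6% for *Eno1*, 96.8% for *Ldha* and 69.4% for *Pdk1*. With no length correction, they were 51.0%, 93.7%, 96.0%, 21.3%, 99.6%, 94.0%, 97.7% and 84.5% in the same order. With windows not found in other transcripts, an alternative chosen after seeing the data, *Hk1* was at 93.9%, *Eno1* at 87.9%, *Ldha* at 94.3% and *Pdk1* at 64.3%, and the other 4 shares moved by less than 1 SD. The planned count of windows found at a single place in the genome was not run, since no genome sequence was used here. With a single library, the shares ranged from 64.2% to 72.1% (*Slc2a1*), 94.3% to 95.1% (*Slc16a1*), 94.0% to 94.2% (*Hk1*), 29.9% to 31.9% (*Pfkl*), 99.6% to 99.7% (*Aldoa*), 83.4% to 84.7% (*Eno1*), 94.9% to 95.5% (*Ldha*) and 65.0% to 66.1% (*Pdk1*). Of the 34 levels in CPM, 28 moved by more than 1 SD without mitochondrial and ribosomal RNA genes, where CPM are 1.16-fold higher on average, and 0 with TMM or DESeq2. Depth limits *Pdk4*, *Hk3*, *Aldoc* and *Eno2*, with 2 to 22 counts a library.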
